A study of Mus musculus with 8 samples.

Results

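The 10 genes Tyrobp, Fcer1g, Cybb, Spi1, Lyz2, Cd68, Itgam, Csf1r, Csf2rb and Csf2rb2 were described in regulatory T-cells (Tregs) differentiated from naive CD4+ T-cells of mice. They encode adaptors, an oxidase subunit, a transcription factor, lysosomal proteins and cytokine receptors of myeloid cells, and they are 10 of the 28239 gene rows counted. The genes were chosen with their Alox15-/- against WT values in view, so that contrast is given below as a description, and no test of it is read for them.

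Spleen cells came from mice labelled with a C57BL/6 background, either WT or Alox15-/-, the latter lacking the lipoxygenase that oxygenates polyunsaturated fatty acids on the way to several lipid mediators. The mice were 10 to 12 weeks of age, females and males being used in the study. The methods name a different supplier for the WT and for the Alox15-/- mice, so supplier and genotype cannot be told apart. Naive CD4+ T-cells were taken by immunomagnetic negative selection, cultured with IL-2, TGF-β and CD3/CD28 beads, and lysed on day 2, while differentiation was under way. RNA was counted by MACE-seq, which sequences a tag near the 3′ end of each transcript, in 4 libraries labelled Alox15-/- (KO1 to KO4) and 4 labelled WT (WT1 to WT4), 1 library per mouse. The labels name a small RNA kit in place of MACE-seq, which is taken here from the study's methods, and statements below on tags near the 3′ end rest on those methods. The labels name a genotype of the whole animal, so every cell type carried over from the spleen had it too. Library totals ran from 3723151 to 9538962 counts.

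Myeloid cells sense their surroundings through receptors that have no signalling tail of their own and pair with small adaptors such as Tyrobp (DAP12) and Fcer1g (the common γ chain of Fc receptors), whose immunoreceptor tyrosine-based activation motifs (ITAMs) recruit the kinase Syk. Cybb is the membrane-bound catalytic subunit of the phagocyte NADPH oxidase, and Spi1 encodes PU.1, the transcription factor that sets up the myeloid program and is silenced as T-cells commit in the thymus. Naive CD4+ T-cells and Tregs are not known as a main source of any of these products.

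The gene that the labels say was deleted was higher in the libraries labelled Alox15-/-. Alox15 was at 70.2, 68.8, 63.4 and 65.0 CPM (counts relative to the library total, scaled by the trimmed mean of M-values, TMM) in KO1 to KO4 and at 1.87, 2.55, 7.73 and 8.98 CPM in WT1 to WT4. The log2 fold change was 3.65 (standard error 0.299, edgeR quasi-likelihood adjusted p = 1.08e-05). Whether the counted tags lie within the deleted part of the gene is not given in the sources used here. All directions below are those of the libraries as labelled.

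The labelled cell type was present in all 8 libraries. Summed over 10 markers of CD4+ T-cells and Tregs, the level was 2681 to 2864 CPM in the libraries labelled Alox15-/- and 2858 to 3018 CPM in those labelled WT. Il2ra, the high-affinity chain of the IL-2 receptor, led this list, followed by the checkpoint receptor Ctla4 and the T-cell receptor constant gene Trac. Foxp3, the Treg transcription factor, was at 71.4, 95.0, 92.6 and 113 CPM in KO1 to KO4 and at 109, 101.01, 194 and 92.9 CPM in WT1 to WT4, and the groups overlapped. Cd4 was lower in every library labelled Alox15-/-, at 208.7 to 295.5 CPM against 326.2 to 350.1 CPM (log2 fold change -0.32, edgeR adjusted p = 0.358), and Cd3g was higher in every one, at 151.4 to 168.9 CPM against 110.4 to 138.9 CPM (0.31, edgeR adjusted p = 0.294). For scale, the 10 genes together made up 0.00718% to 0.0280% of all counts in the libraries labelled Alox15-/- and 0.00220% to 0.00289% in those labelled WT.

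Because Spi1 is one of the 10 genes, short motifs of PU.1 were looked for upstream of the others, and the windows that held one are printed here from RefSeq (GRCm38.p6) as 200 bases, running from 250 to 51 bases before the RefSeq gene start, 5′ to 3′ on the strand of the gene. Capitals mark the short form GAGGAA and the long form AGGAAGT, which share letters and can overlap, and the AP-1 site TGACTCA. All were searched on both strands, so the short form can also read as TTCCTC, the long form as ACTTCCT and the AP-1 site as TGAGTCA. RefSeq windows were at hand for 6 of the 10 genes (Fcer1g, Itgam, Lyz2, Cd68, Csf2rb2 and Cybb). That of Cybb, from 9469375 to 9469574 on the X chromosome, lies inside the longer span that GENCODE gives the gene, so it is upstream of the RefSeq start only.
Itgam, chr7:128062390-128062589, plus strand: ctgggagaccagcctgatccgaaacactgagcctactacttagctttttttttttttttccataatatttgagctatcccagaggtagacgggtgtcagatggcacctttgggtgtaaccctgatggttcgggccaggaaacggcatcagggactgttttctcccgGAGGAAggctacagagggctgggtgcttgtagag
Lyz2, chr10:117282323-117282522, minus strand: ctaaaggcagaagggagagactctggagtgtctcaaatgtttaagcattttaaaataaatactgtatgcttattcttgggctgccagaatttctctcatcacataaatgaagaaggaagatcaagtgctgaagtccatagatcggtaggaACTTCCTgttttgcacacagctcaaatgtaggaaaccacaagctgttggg
Cd68, chr11:69666221-69666420, minus strand: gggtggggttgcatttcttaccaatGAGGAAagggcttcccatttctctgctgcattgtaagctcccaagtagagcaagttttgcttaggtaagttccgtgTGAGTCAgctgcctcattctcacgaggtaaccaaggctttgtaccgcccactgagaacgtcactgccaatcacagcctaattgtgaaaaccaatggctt
Csf2rb2, chr15:78305772-78305971, minus strand: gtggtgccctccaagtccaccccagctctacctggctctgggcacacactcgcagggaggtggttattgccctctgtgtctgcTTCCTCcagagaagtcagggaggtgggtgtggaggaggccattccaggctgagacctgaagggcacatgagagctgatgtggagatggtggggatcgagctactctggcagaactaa
GAGGAA on either strand was in 3 of the 6 windows (Itgam, Cd68 and Csf2rb2) and in 18.8% of 32851 mouse windows of the same length. AGGAAGT was in the Lyz2 window alone among the 6 and in 5.66% of all windows. The AP-1 site was in the Cd68 window and in 3.61% of all, and the C/EBP palindrome TTGCGCAA was in 0 of the 6 and in 0.128% of all. The PU.1 motif began 84 bases before the gene start in Itgam, 100 in Lyz2, 167 in Csf2rb2 and 225 in Cd68. A match of letters is a description of the window and shows no binding.

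Both adaptors were higher in every library labelled Alox15-/- than in any labelled WT. Tyrobp (ENSMUSG00000030579.10, GRCm38 chr7:30413760-30417585), the adaptor of TREM and natural killer receptors, was at 8.89, 17.8, 14.7 and 6.44 CPM in KO1 to KO4 and at 1.56, 1.43, 0.903 and 2.09 CPM in WT1 to WT4. The WT values rest on 9 or 10 counts each, and the lowest of the other group, KO4, was 3.08 times the highest WT value. The fitted log2 fold change was 3.03 (standard error 0.366). Fcer1g (ENSMUSG00000058715.11, chr1:171229572-171234365), which carries the ITAM of the IgE receptor and of several IgG receptors, was at 21.9, 42.9, 29.5 and 10.02 CPM against 6.08, 4.30, 4.62 and 5.01 CPM, a log2 fold change of 2.35 (standard error 0.344). The 4 WT libraries lay close together, their highest value being 1.41 times their lowest, whereas KO2 was 4.28 times KO4.

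**Figure D1:**
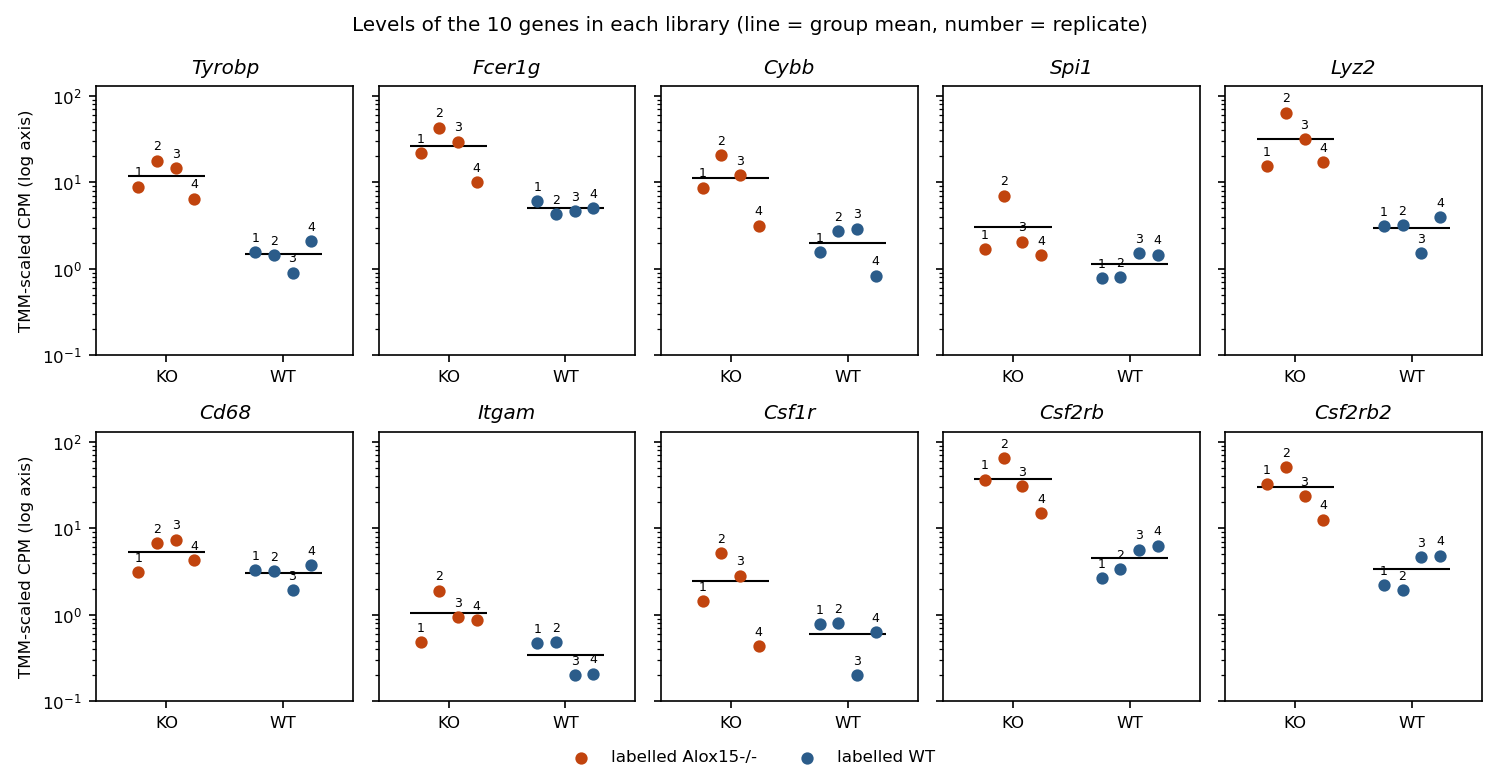
Level of each of the 10 genes in each library, as TMM-scaled CPM on a log axis shared by all panels, with the 4 libraries labelled Alox15-/- (KO) left and the 4 labelled WT right in each panel. A horizontal line is the mean of 4 libraries and the small number beside a point is its replicate; KO2 is the highest KO point in 9 of the 10 panels, and only the Spi1, Cd68 and Csf1r panels have groups that overlap.

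Cybb, the oxidase subunit also known as NOX2 or gp91phox, was higher in the libraries labelled Alox15-/-, by a narrower gap. Cybb (ENSMUSG00000015340.10, chrX:9435252-9487771) was at 8.65, 20.5, 12.04 and 3.15 CPM in KO1 to KO4 and at 1.56, 2.71, 2.91 and 0.835 CPM in WT1 to WT4. KO4, the lowest of its group, was 1.08 times the highest WT library, so the groups only just separated. The log2 fold change was 2.33 (standard error 0.478), the largest standard error of the 7 genes that passed the filter.

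Spi1 and Itgam were barely detected, and neither reached the minimum for testing of 2 CPM in at least 4 libraries. Spi1 (ENSMUSG00000002111.8, chr2:91082390-91115756) was at 1.68, 7.02, 2.07 and 1.43 CPM against 0.780, 0.797, 1.51 and 1.46 CPM. KO2 alone stood far from the rest, and KO4 lay below WT3 and WT4, so the groups overlapped. Without the filter its fitted log2 fold change was 1.28 (standard error 0.432). Itgam (ENSMUSG00000030786.18, chr7:128062640-128118491), the αM chain of the complement receptor Mac-1, was at 0.481, 1.89, 0.941 and 0.859 CPM against 0.468, 0.478, 0.201 and 0.209 CPM. These values are 2 to 7 counts per library in one group and 1 to 3 in the other, too few to set the groups apart at this depth although no value crossed, and the fit without the filter gave 1.53 (standard error 0.695). Itgam also shares 55809 bases with the overlapping gene model Gm49368 on the same strand, so its few tags could have been assigned to either.

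The lysosomal genes behaved unlike each other. Lyz2 (ENSMUSG00000069516.8, chr10:117277331-117282321), the lysozyme of macrophages and neutrophils, was at 15.4, 64.0, 31.4 and 17.2 CPM in KO1 to KO4 and at 3.12, 3.19, 1.51 and 3.97 CPM in WT1 to WT4. Its lowest value in the former group, KO1, was 3.88 times the highest WT value, and the log2 fold change of 3.49 (standard error 0.440) was the largest of the 10 genes. The last 500 bases of its transcript match those of Lyz1, the lysozyme of intestinal Paneth cells, at 97.0% over 497 bases, so tags could be shared between them. Cd68 (ENSMUSG00000018774.13, chr11:69664213-69666153), a sialomucin of late endosomes in macrophages, was at 3.12, 6.75, 7.34 and 4.29 CPM against 3.28, 3.19, 1.91 and 3.76 CPM. KO1 lay below 3 of the 4 WT libraries, and the log2 fold change was 0.86 (standard error 0.318). Cd68 lies 0.68 Mb from Alox15 on the same chromosome.

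Of the cytokine receptors, the pair of β common chains was far higher in the libraries labelled Alox15-/- and Csf1r was at a few counts. Csf2rb (ENSMUSG00000071713.6, chr15:78325752-78353847), the chain shared by the receptors for GM-CSF, IL-3 and IL-5, was at 36.3, 64.5, 30.9 and 15.0 CPM in KO1 to KO4 and at 2.65, 3.35, 5.62 and 6.26 CPM in WT1 to WT4, a log2 fold change of 2.9997 (standard error 0.380). Csf2rb2 (ENSMUSG00000071714.7, chr15:78282507-78305721), the mouse copy that serves the IL-3 receptor, was at 32.4, 50.5, 23.3 and 12.6 CPM against 2.18, 1.91, 4.62 and 4.80 CPM, a log2 fold change of 3.08 (standard error 0.392). For both, KO4 was the lowest of its group and still 2.40 times (Csf2rb) and 2.62 times (Csf2rb2) the highest WT library.

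The rows of this pair cannot be taken as fully separate counts. The genes lie 20031 bases apart on opposite strands, and their transcripts match at 95.1% over 3108 bases. The last 500 bases, where MACE-seq tags fall, match less well, at 80.3% over 488 bases. In every library Csf2rb was the higher row, by 1.12 to 1.75 times. Summed to 1 row before the fit, the pair gave 68.7, 115, 54.2 and 27.6 CPM against 4.83, 5.26, 10.2 and 11.1 CPM, and its log2 fold change was 3.05.

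Csf1r (ENSMUSG00000024621.16, chr18:61100598-61132149), the receptor for M-CSF and IL-34 on which macrophages depend, was at 1.44, 5.13, 2.82 and 0.429 CPM against 0.780, 0.797, 0.201 and 0.626 CPM. KO2 and KO3 were the highest libraries, KO4 fell within the WT range, and no library held more than 19 counts. The gene did not reach the minimum for testing, and the fit without the filter gave a log2 fold change of 1.97 (standard error 0.532). The last 500 bases of its transcript lie wholly within Hmgxb3 on the other strand, and whether the counting used strand is not given in the sources used here.

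Of the 7 genes that could be tested, 6 had all 4 libraries labelled Alox15-/- above all 4 labelled WT, as did 2.75% of the 12700 genes tested. With Itgam, apart by less than its counts can resolve, the count was 7 of the 10, beside 2.15% of all 28239 rows. Of the 7 tested, 6 passed an adjusted p of 0.05 in edgeR and were higher (Tyrobp, Fcer1g, Cybb, Lyz2, Csf2rb and Csf2rb2), where 1.05% of all genes tested were higher at that threshold and 1.24% changed in either direction. The genes had been selected on this contrast, so nothing is read from these counts. Among the 7, only Fcer1g and Csf2rb reached 2 CPM in all 4 WT libraries, and the other 5 entered the test through the libraries where they were high. Cybb fell short of the threshold when KO2, KO3, WT1 or WT2 was left out, which left 5 genes past it. In bulk RNA, fewer cells of a type and less RNA per cell cannot be told apart.

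The spread among the 4 libraries labelled Alox15-/- was itself large. KO2 was the highest of them for 9 of the 10 genes (KO3 for Cd68), and KO4 was the lowest for 7 and KO1 for 3. The summed level of the 10 genes was 130.2, 281, 155 and 71.4 CPM in KO1 to KO4, against 22.5, 22.1, 23.98 and 29.0 CPM in WT1 to WT4. For the 7 tested genes the highest KO library was 2.35 to 6.52 times the lowest, whereas the median over all genes tested was 1.37 times. Among the WT libraries the same ratio was 1.41 to 3.48 for these genes and 1.39 at the median over all genes tested. KO2 was the shallowest library, with 3723151 counts, and KO4 was the deepest of its group, with 6952596; the part of depth in this order was not tested.

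**Figure D2:**
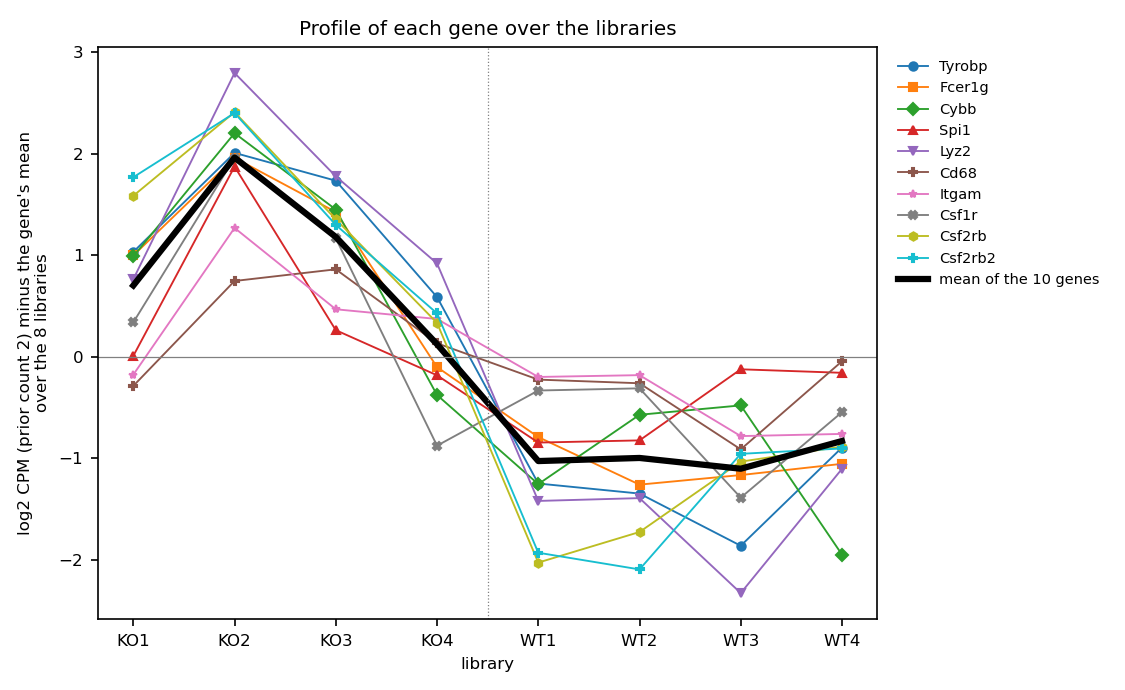
Profile of each of the 10 genes over the 8 libraries, as log2 CPM (prior count 2) minus the mean of that gene over all libraries, with the mean of the 10 profiles as a thick black line. Among the KO libraries, 9 of the 10 lines are highest in KO2 (Cd68 in KO3), and 7 are lowest in KO4 and 3 in KO1. The WT libraries show no order shared by the genes.

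Fcer1g had the profile nearest to the mean of the 10 genes, with a root mean square (RMS) difference of 0.22 on the log2 scale, and Cd68 the farthest, with 0.74. Tyrobp (0.42), Csf1r (0.53), Cybb (0.54), Csf2rb (0.57) and Spi1 (0.60) lay between, as did Itgam (0.64), Csf2rb2 (0.66) and Lyz2 (0.67). Leaving out KO2 lowered the log2 fold change of all 7 tested genes, to 2.79 for Tyrobp, 2.02 for Fcer1g, 1.87 for Cybb, 2.93 for Lyz2, 0.75 for Cd68, 2.59 for Csf2rb and 2.71 for Csf2rb2. None changed sign.

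Among 12693 other tested genes, those whose profile over the 8 libraries was most like the mean of the 10 genes were Lilrb4a (RMS 0.19), Ly6c1 (0.24), Tcrg-C1 (0.28), Hdc (0.28), Ly6c2 (0.29), Ccl6 (0.31), Emilin2 (0.32) and Tcrg-C4 (0.33), against a median of 1.12 for all. Lilrb4a, an inhibitory receptor of mast cells and other myeloid cells, was at 18.0, 30.0, 16.7 and 8.73 CPM in KO1 to KO4 and at 3.74, 4.78, 4.21 and 4.38 CPM in WT1 to WT4. Ly6c2, a surface antigen of inflammatory monocytes and of some T-cells, was at 47.1, 94.8, 63.2 and 26.6 CPM against 7.95, 8.60, 10.03 and 9.81 CPM. Both follow the order KO2, then KO1 or KO3, then KO4. Hdc makes histamine, Ccl6 is a chemokine of granulocytes and macrophages, and Tcrg-C1 and Tcrg-C4 are constant genes of the γδ T-cell receptor. Likeness was measured over 8 libraries that share the contrast by which the 10 genes were selected, so it is a description.

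Of 116 genes in 6 lists of the same pathways, none of them among the 10, 70 could be tested and 4 (5.71%) passed the adjusted threshold of edgeR as higher with the Alox15-/- label (Clec4e, Fcgr3, Gata2 and Cd63) and 0 as lower, where 1.24% of all genes tested were called. DESeq2 called 6 as higher, adding Hcst and Socs3, and 0 as lower. At an unadjusted edgeR p under 0.05 there were 16, of which 12 were higher and 4 lower (Lcp2, Itgb2, Itgal and Cish), where 7.84% of all genes tested had such a p. Clec4e and Fcgr3 reached 2 CPM in no WT library and Gata2 in 1, and Cd63 fell short of it in WT1 (0.780 CPM). All of these met the filter only with libraries where they were high, and nothing is read from the share of list genes called. The other list genes with counts were too low to test, and with no filter 10 of 112 passed, all higher. Of the additions, Lat2, Lyz1 and Ctsh had been too low to test. Cebpb, Hcst and Socs3 had been tested in the main fit and not called. The median log2 fold change over the 70 genes was 0.05, against -0.01 over all genes tested. These lists were drawn up with results of these data already known.

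Of 32 ITAM receptors, adaptors and kinases, 12 were tested and 2 were called, with Hcst (DAP10, an adaptor without an ITAM) a further call by DESeq2. Clec4e (Mincle), a receptor for mycobacterial glycolipid that signals through Fcer1g, was at 3.84, 11.6, 6.58 and 2.43 CPM in KO1 to KO4 and at 0.312, 0.478, 0.301 and 1.04 CPM in WT1 to WT4 (log2 fold change 3.55, standard error 0.552, edgeR adjusted p = 0.00219). Fcgr3, the low-affinity IgG receptor of the same adaptor, was at 5.29, 13.0, 6.77 and 3.58 CPM against 0.156, 1.12, 1.003 and 1.88 CPM (2.77, standard error 0.487, edgeR adjusted p = 0.00630). No WT library reached 2 CPM for either, so both were tested only because all 4 KO libraries did, and neither was tested once any KO library was left out. The most abundant genes of the list were those of T-cell receptor signalling and did not pass: Lat at 0.09 (edgeR adjusted p = 0.863), Zap70 at -0.18 (0.844) and Lcp2 at -0.25 (0.573). The median of the list was 0.00.

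None of the 10 tested partners of the phagocyte oxidase, of 15 listed, was called by edgeR, and 0 had an unadjusted p under 0.05 or passed in DESeq2. The GTPase Rac2, which activates the oxidase, was at 794.8, 651.9, 815.0 and 800.6 CPM in KO1 to KO4 and at 913.5, 795.5, 832.3 and 933.8 CPM in WT1 to WT4 (log2 fold change -0.18, edgeR adjusted p = 0.720). Cyba, the p22phox chain that forms the membrane complex with Cybb, stood at -0.01 (edgeR adjusted p = 0.996) and Rac1 at 0.02 (0.978). The range of the 10 genes, from -0.18 to 0.18, lay far below the 2.33 of Cybb.

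Of 16 transcription factors of myeloid development, 8 were tested and Gata2 was called. Gata2, a factor of early progenitors, mast cells and basophils, was at 9.13, 24.3, 6.77 and 8.30 CPM in KO1 to KO4 and at 0.624, 1.27, 1.003 and 2.30 CPM in WT1 to WT4 (log2 fold change 3.24, standard error 0.457, edgeR adjusted p = 0.00101). Irf8, the partner of PU.1 in monocyte development that B-cells and activated T-cells also use, was the most abundant and stood at -0.11 (edgeR adjusted p = 0.925), with Runx1 at 0.18 (0.782) and Id2 at -0.10 (0.927). The median was 0.26.

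None of the 9 tested β2 integrin genes and partners, of 10 listed, was called by edgeR or DESeq2, and at an unadjusted p under 0.05 there were 2, both lower, beside 7.84% of all genes tested. Itgb2, the β chain that pairs with Itgam, was at 254.9, 225.4, 255.3 and 262.2 CPM in KO1 to KO4 and at 292.4, 293.2, 314.3 and 306.5 CPM in WT1 to WT4 (log2 fold change -0.27, edgeR adjusted p = 0.317). Itgal, the αL chain with which T-cells use that partner as LFA-1, stood at -0.32 (edgeR adjusted p = 0.261) and the GTPase Rap1b at 0.05 (0.967).

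Of 20 lysosomal genes, 17 were tested and Cd63 was called. Cd63, a tetraspanin of late endosomes and of the granules of basophils and other granulocytes, was at 25.5, 56.7, 28.2 and 10.4 CPM in KO1 to KO4 and at 0.780, 2.07, 2.31 and 2.71 CPM in WT1 to WT4 (log2 fold change 3.90, standard error 0.461, edgeR adjusted p = 0.000217). WT1 lay below 2 CPM, so Cd63 too met the filter only with libraries labelled Alox15-/-. Its processed pseudogene Cd63-ps has a row of its own, with which tags could be shared. The most abundant lysosomal genes did not pass: Laptm5 stood at -0.19 (edgeR adjusted p = 0.687), the sterol carrier Npc2 at 0.19 (0.722) and Lamp1 at -0.03 (0.970). The median was 0.10.

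None of the 14 tested genes of colony-stimulating factor and β common receptor signalling, of 23 listed, was called by edgeR. DESeq2 called Socs3, and at an unadjusted edgeR p under 0.05 there were 4 (Cish, Socs3, Csf2ra and Socs1), of which only Cish was lower, again beside 7.84% of all genes tested. Cish, a feedback inhibitor of STAT5 signalling induced by IL-2, was at 359.4, 330.7, 336.9 and 352.6 CPM in KO1 to KO4 and at 408.3, 378.4, 424.5 and 488.5 CPM in WT1 to WT4 (log2 fold change -0.30, edgeR adjusted p = 0.300). The phosphatase Ptpn6 stood at -0.04 (edgeR adjusted p = 0.944) and Stat5a at -0.08 (0.891). Csf2ra, the α chain that makes Csf2rb a GM-CSF receptor, was at 2.88, 3.51, 3.95 and 3.29 CPM against 1.87, 1.91, 2.21 and 1.25 CPM (0.87, edgeR adjusted p = 0.317). Csf2ra, Socs1, Socs3 and Lcp2 were singled out after their values were seen, apart from the place of Lcp2 among the most abundant genes.

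**Figure D3:**
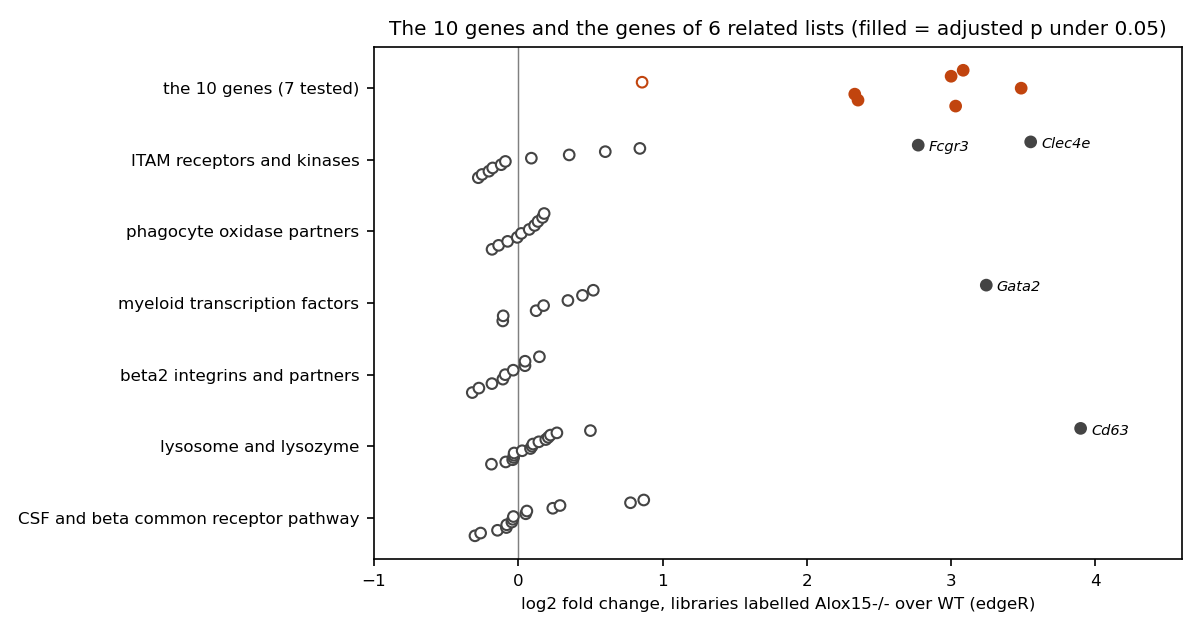
Log2 fold change between libraries labelled Alox15-/- and WT (edgeR) for the 7 of the 10 genes that could be tested and for every tested gene of the 6 related lists. Filled circles passed an adjusted p of 0.05 and open circles did not; the 4 filled list genes lie between 2.77 and 3.90, and the rest between -0.32 and 0.87.

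Markers of other cell types moved with the 10 genes, and their part in the result was not tested. Those of granulocytes were at higher levels with the Alox15-/- label: the neutrophil list summed to 24.6 to 351.2 CPM there against 4.99 to 11.1 CPM in WT libraries, with 7 of its 13 counted genes higher in every library labelled Alox15-/-. The same held for 2.15% of all 28239 rows, the share beside which the counts of marker genes apart stand here and below. Its most abundant genes were S100a8, S100a9 and Ctsg, and Ctsg, a protease of azurophil granules, was at 22.6, 46.7, 28.2 and 10.4 CPM against 0.468, 0.956, 1.20 and 2.51 CPM. The mast cell and basophil list ran from 145.1 to 375.2 CPM against 59.3 to 83.9 CPM, with 9 of 10 genes apart. Its most abundant genes were Mcpt8, Cpa3 and Kit. Kit itself was not apart, at 25.2 to 40.1 CPM against 30.1 to 35.1 CPM (log2 fold change -0.04). Mcpt8, a basophil protease, was at 77.8, 125.5, 54.4 and 42.8 CPM against 4.52, 5.42, 6.02 and 15.4 CPM. The eosinophil list ran from 21.6 to 78.0 CPM against 1.25 to 10.4 CPM, with 5 of 9 genes apart, led by the granule genes Prg2, Epx and Prg3. The summed level of the 10 genes ran from KO2 through KO3 and KO1 to KO4, and so did those of the neutrophil, eosinophil, NK cell and dendritic cell lists.

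Genes of monocytes and macrophages were low in both groups. The monocyte and macrophage list summed to 9.85 to 18.4 CPM against 6.92 to 9.24 CPM, so the sums did not overlap, while 0 of its 10 counted genes separated the groups singly. The level came mostly from Cx3cr1, at 3.76 to 5.67 CPM against 2.65 to 4.94 CPM, Fcgr1, at 0.481 to 3.51 CPM against 1.30 to 1.75 CPM, and Mertk, at 0.721 to 3.78 CPM against 1.09 to 1.75 CPM. Ccr2, the chemokine receptor of inflammatory monocytes, was at 1.92, 1.08, 1.32 and 0.429 CPM in KO1 to KO4 and at 0.780, 0, 0.1003 and 0 CPM in WT1 to WT4. Adgre1 (F4/80) was at 1.20, 0.810, 0.752 and 0.716 CPM in KO1 to KO4 and at 0, 0.159, 0.401 and 1.04 CPM in WT1 to WT4, and Cd14 was at most 0.810 CPM in any library. C1qb was at 0 in all 4 WT libraries and at most 0.376 CPM in the others. The dendritic cell list, led by Zbtb46, Itgax and Flt3, was at 3.29 to 6.75 CPM against 2.91 to 4.46 CPM, with 0 of 5 genes apart.

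Other blood lineages differed too. Of the marker genes, Gata2, Kit, Fcgr1, Flt3, Itgax and Il5ra also stand in one of the pathway lists. The erythroid list, almost wholly the hemoglobin genes Hbb-bs, Hba-a1 and Hba-a2, was at 903.5 to 3473 CPM against 34.5 to 122.8 CPM, with 7 of 8 genes apart. The platelet list (Itga2b, Pf4 and Ppbp first) was at 3.12 to 13.8 CPM against 0.637 to 1.51 CPM, with 2 of 5 genes apart, and the γδ T-cell list, led by Trdc, Tcrg-C4 and Tcrg-C2, at 77.6 to 140.4 CPM against 26.9 to 44.1 CPM, with 4 of 5 genes apart. The NK cell list (Gzma, Eomes and Klrb1c first), which shares Tyrobp as adaptor, was at 9.73 to 40.8 CPM against 8.92 to 21.1 CPM, with 0 of 8 genes apart. The B-cell list (Ighm, Cd79b and Ms4a1 first) was at 211.1 to 308.8 CPM against 207.1 to 299.7 CPM, with 0 of 6 apart. KO4 was the lowest library labelled Alox15-/- in 8 of the 11 marker lists, and KO2 the highest in 8.

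**Figure D4:**
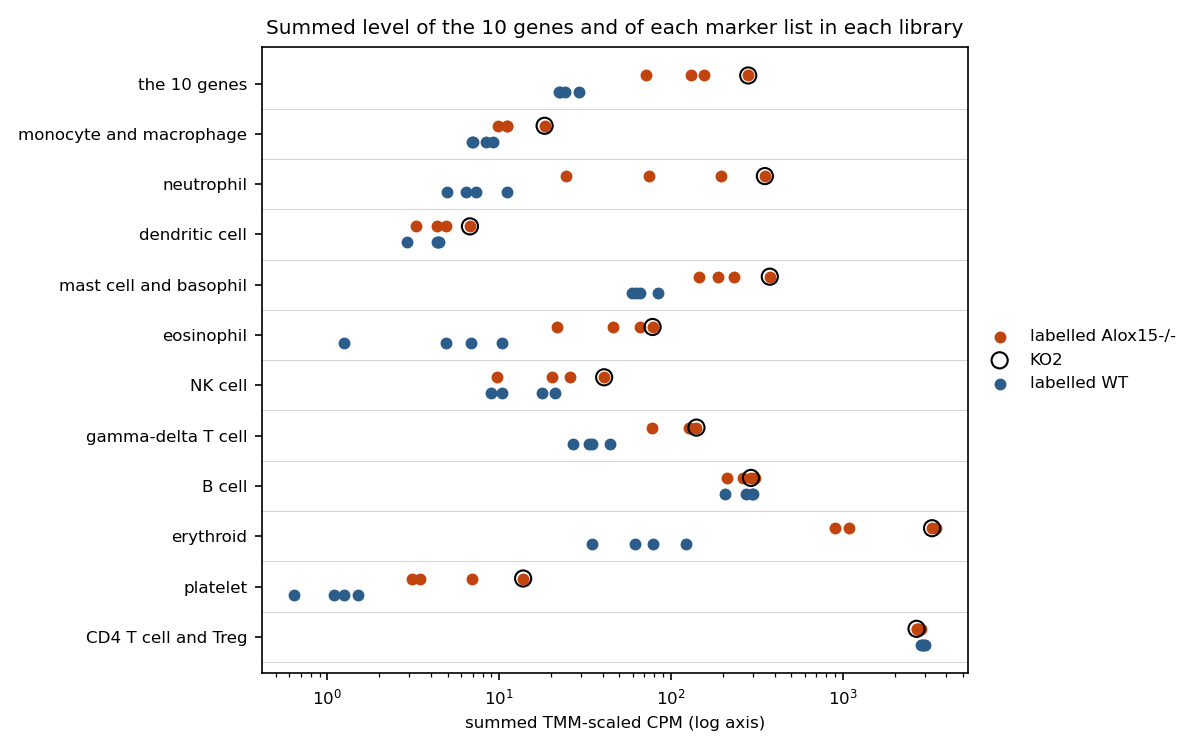
Summed TMM-scaled CPM (log axis) of the 10 genes and of each marker list in each library, red for libraries labelled Alox15-/- and blue for WT, with KO2 circled. Groups are apart for the 10 genes and for the neutrophil, mast cell and basophil, eosinophil, γδ T-cell, erythroid, platelet and, narrowly, the monocyte and macrophage sums, and they overlap for dendritic, NK, B-cell and CD4 T-cell sums.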

How the data were processed

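RNA of 8 mouse Treg cultures was measured by MACE-seq on day 2, 4 libraries labelled Alox15-/- and 4 labelled WT. The authors deposited 1 table of whole-number counts per gene with normalized values beside them. The deposited counts were used as they stand. The submitters' processing notes name Bowtie, edgeR and GRCm38, and the version of each and the use of strand or molecular identifiers are not given in the sources used here. No column was left unmapped.

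Counts were fitted with edgeR 4.0.16 (R 4.3.3) by the quasi-likelihood test, two-sided, with TMM scaling, 28239 rows cut to the 12700 genes at 2 CPM or more in at least 4 libraries, Benjamini–Hochberg adjustment over all of them and a threshold of 0.05. Levels are TMM-scaled CPM. Library totals of 3723151 to 9538962 counts make 1 count worth 0.100 to 0.270 CPM. Alternatives were size factors of DESeq2, the test of DESeq2 1.42.0, no filter, filterByExpr, a replicate block, leaving out each library, and Csf2rb and Csf2rb2 as 1 row. No pair of libraries agreed within sampling noise (chi-square per degree of freedom 4.60 to 17.4).

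The 10 genes, the 6 pathway lists (ITAM receptors and kinases, phagocyte oxidase partners, myeloid transcription factors, β2 integrins and partners, lysosome and lysozyme, CSF and β common receptor pathway) and the 11 marker lists were chosen with earlier results of these data known. Named genes were the 10, Alox15, and the called genes and the 3 most abundant of each pathway list. From each marker list they were the 3 most abundant and any at 0 throughout. No row of the counts was at 0 throughout, so there could be none. The 8 genes nearest to the mean profile (log2 CPM, prior count 2, centred over the libraries) were named too. Defining marker genes named beyond these were picked after their values were seen. C1qa, C1qc, Marco, Vsig4, Retnlg, Clec9a, Siglech, Clec10a and Ahsp were listed as markers but have no row under these names, so they were not analysed. Positions are from GENCODE vM21 (GRCm38), 3′ ends were aligned with blastn 2.17.0 (at least 90% identity over 100 bases, except for the Csf2rb pair), and upstream windows came from RefSeq (GRCm38.p6). The p-values set the difference between the groups against the spread of libraries within each group, and they cover these 8 libraries only.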

Additional observations from a re-analysis of the deposited data

Results flagged for a closer look

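The Spi1 level in KO2, 7.02 CPM (26 counts), stood apart from the other libraries labelled Alox15-/-. Its gap to the next library, KO3 at 2.07 CPM, was 0.886 of the range of the 4 values, above Dixon's 95% critical value for 4 samples. It was the only one of 22 groups of values examined, the 10 genes and their sum in each of the 2 groups of libraries, to pass that limit, and chance marks about 1 group in 20. KO2 was also the highest of these libraries for 8 of the other 9 genes.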

How the results depend on the processing

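The log2 fold changes of the 7 tested genes among the 10 kept their sign in all 97 values of the alternatives and moved by less than the spread between libraries, and 5 or 6 of them passed the threshold in each. With no filter on low counts 388 genes passed in place of 158, 10 list genes in place of 4, and 4 ITAM genes, 2 transcription factors, 3 lysosomal genes and 1 gene of the CSF pathway. That setting tests 28239 rows, Csf1r among those that then pass. DESeq2 called 194 genes and 6 list genes, with 3 ITAM genes (Hcst added) and 1 gene of the CSF pathway (Socs3). Leaving out 1 library at a time gave 86 to 173 genes (95 without KO1, 86 without KO2, 93 without KO3 and 105 without WT2), 2 to 5 list genes, 0 to 3 ITAM genes and 0 to 1 gene of the CSF pathway (Socs3, without WT3). Hcst passed without WT4. The 2 list genes lost whenever a KO library was left out were Clec4e and Fcgr3, which then missed the filter. The replicate numbers did not pair the libraries (correlations of same-numbered deviations 0.07, 0.17, -0.18 and -0.02), and the fit with a replicate block called 146 genes, 6 of the 10 and 4 list genes. Of the 8 genes with the most similar profile, 7 were found again with a prior count of 0.5. Depth limits Spi1, Itgam and Csf1r, which held at most 26, 7 and 19 counts in a library.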

Other observations

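Of the other genes with profiles like that of the 10 genes, Hdc, the histamine-forming enzyme of mast cells and basophils, was at 10.6, 18.1, 8.28 and 4.72 CPM in KO1 to KO4 and at 1.72, 1.91, 1.71 and 1.46 CPM in WT1 to WT4. Ccl6, a chemokine of granulocytes and macrophages, was at 9.13, 20.2, 11.1 and 3.01 CPM against 1.72, 2.23, 1.20 and 1.88 CPM. Emilin2, a glycoprotein of the extracellular matrix, was at 4.81, 9.99, 3.57 and 3.01 CPM against 0.936, 0.797, 1.20 and 1.67 CPM. Tcrg-C1, a constant gene of the γδ T-cell receptor, was at 8.17, 13.5, 8.65 and 5.87 CPM against 2.34, 1.75, 2.31 and 1.67 CPM. Tcrg-C4, another such constant gene, was at 25.2, 31.6, 26.5 and 13.7 CPM against 6.55, 5.58, 7.73 and 5.22 CPM. These genes were picked for profiles near the mean of the 10 genes, so the choice itself favours this order of libraries and nothing is read from it.

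Ly6c1 and Ly6c2, neighbouring members of one antigen family, were both on that list. Ly6c1 was at 44.9, 89.1, 57.2 and 32.9 CPM in KO1 to KO4 and at 15.0, 14.5, 10.3 and 10.2 CPM in WT1 to WT4. The sequences of these genes were not compared here, so tags shared between them were not examined.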
